A study of Rattus norvegicus with 30 samples.

Results

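The Slc12a8 span is a 185 kb stretch of rat chromosome 11 (Rn6, chr11:70319864-70505287) around 2 intronic sites of Slc12a8 at which the study listed changes in DNA methylation (DNAm) of opposite direction after prenatal alcohol exposure (PAE). Its members are the merged peak regions that overlapped the span and had a called peak in at least 2 of 30 methylated DNA immunoprecipitation sequencing (meDIP-seq) libraries of the prefrontal cortex (PFC). There were 50 such regions among 432103 on the autosomes, and 45 of them, the 2 sites included, were called in 3 or more libraries and were among the 352026 regions fitted genome-wide. The first site spans chr11:70369864-70370632 (769 bp) and the second chr11:70455287-70455893 (607 bp), and their starts lie 85.4 kb apart. The ends of the span were set from these 2 sites, which the study selected on these animals from the same contrasts, so the values at both are given here as a description without a test, and tests concern the 43 other fitted regions.

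The animals were Sprague-Dawley rats at postnatal day 22, offspring of 15 dams with 5 dams in each prenatal group and 1 pup labelled female and 1 labelled male per dam. PAE dams had free access to a liquid diet with 36% of calories from ethanol (6.37% v/v) from gestation day 1 to 21, pair-fed (PF) dams an isocaloric liquid diet with maltose-dextrin in the amount eaten by a PAE partner, and control (CON) dams a pelleted control diet ad libitum. PF dams matched PAE dams in the amount of liquid diet eaten but received it as a restricted ration and without ethanol, so PAE and PF differ in ethanol and in feeding schedule, and PF and CON in the form, amount and schedule of feeding. The tissue was a mixture of cell types, in which a change of DNAm in some cells and a change in the make-up of cells cannot be told apart.

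Slc12a8 encodes a member of the cation-chloride cotransporter family, membrane proteins that move ions together across the plasma membrane and that in neurons set the chloride gradient on which inhibitory signalling depends. The protein itself is one of the least characterised members of the family and has been described as a transporter of nicotinamide mononucleotide, a precursor of NAD. In meDIP-seq, an antibody against methylated cytosine pulls down methylated fragments, so that a peak marks a stretch where methylated CpG sites are dense enough to be captured. A higher peak is read as more DNAm, but the height also depends on the number of CpG sites and on how well the pull-down worked in that library.

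Height was taken as the highest pileup within a region, the number of overlapping fragments at the top of the peak, per 1000000 filtered fragments, and is called normalized height. Where no peak was called the animal was given a floor of 0.438. Coverage under the threshold for a peak was not analysed here, so the true height of such an animal may lie below or above the floor, and a difference from it may be too small or too large. The libraries held 11548314 to 16555049 filtered fragments. At these depths, the called peaks at the first site rested on pileups of 6 to 15 fragments and those at the second site on 12 to 23 fragments. Pups of 1 dam share a litter, so the p-values below measure the spread between animals rather than between litters.

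The libraries also differed in properties other than prenatal group, which touch the values below. On the sex chromosomes, 7 libraries had a high share of regions on X and few on Y and 23 the reverse, and 18 of the 30 went against their labelled sex (13 labelled female and 5 labelled male). Results are therefore also given for the 12 libraries that went with their label (3 CON, 6 PAE and 3 PF). These 12 libraries were fitted with group alone, without labelled sex and chip. The 3 CON libraries among them were all labelled male, whereas PAE and PF each also held a library labelled female. Agreement with the labelled sex does not show that a library is rightly labelled. Whether the labels of group and dam hold could not be checked here, and the comparisons below rest on them. In addition, 5 libraries (3 CON, 1 PAE and 1 PF) had a peak in 35.6 to 44.9% of all regions, against 23.0 to 35.3% in the other 25, and also the longest fragments, with means of 250 to 254 bp against 229 to 247 bp. The libraries were spread over 5 sequencing chips that did not hold the groups evenly, with 0 PAE libraries on one chip and 0 PF libraries on another. Chips UEX000296 and UEX000297 held 1 CON library each, and chip UEX000299 held 1 PF library. Comparisons with that group within these chips rest on 1 animal of it, and the same animals serve more than 1 contrast.

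At the first site, no CON animal had a called peak, against 6 of 10 PAE and 3 of 10 PF animals. The called PAE animals had normalized heights of 0.572, 1.03 and 0.606 (labelled female, dams E3, E6 and E9) and 0.812, 0.708 and 0.573 (labelled male, dams E1, E6 and E9). The 3 called PF animals had 0.439 (labelled female, dam PF26), 0.510 and 0.586 (labelled male, dams PF24 and PF28). The PF heights and 2 of the PAE heights lay close to the floor, and the groups overlapped because 4 PAE animals sat at the floor with all CON animals. Peaks were called in 4 of the 5 PAE dams, in both pups of 2 of them.

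The mean normalized height at the first site was 0.606 ± 0.197 for PAE, 0.438 ± 0 for CON and 0.460 ± 0.0495 for PF (SD, n = 10 each). On the log2 scale, with labelled sex and chip in the model, PAE was higher by 0.44 than CON (SE 0.142) and by 0.36 than PF (SE 0.142), while PF and CON differed by 0.08 (SE 0.147). Within chips, PAE was above CON in 4 of the 4 chips that held both groups and above PF in 3 of 3. All CON animals sat at the floor, so PAE could not lie below CON in any chip. None of the 5 libraries with the most regions called had a peak here, and without them the differences were 0.57 against CON and 0.45 against PF. In the libraries that went with their labelled sex, with group alone in the model, they were 0.33 and 0.19.

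At the second site the order was the other way round, with a called peak in 4 of 10 CON animals, 1 PAE and 1 PF animal. The called CON animals had normalized heights of 1.30, 1.65 and 1.03 (labelled female, dams C41, C43 and C45) and 1.77 (labelled male, dam C45). The PAE animal (labelled female, dam E2) had 1.23 and the PF animal (labelled female, dam PF27) 1.03. All 6 heights were above 1, well over the floor, and the other 24 animals sat at it, so the groups overlapped in both directions.

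The mean at the second site was 0.838 ± 0.551 for CON, 0.517 ± 0.249 for PAE and 0.498 ± 0.188 for PF (SD, n = 10 each). PAE was lower than CON by 0.55 on the log2 scale (SE 0.223) and PF lower than CON by 0.50 (SE 0.231), and PAE and PF differed by −0.05 (SE 0.223). The 6 called libraries included all 5 with the most regions called and the longest fragments, and the sixth, from dam C41, had 33.5% of regions called and a mean fragment length of 244 bp. All 6 were on the same 2 chips, which held 5 CON, 3 PAE and 3 PF libraries, whereas on the other 3 chips 0 of 5 CON, 0 of 7 PAE and 0 of 7 PF animals had a peak. Within chips, PAE was below CON in 1 of 4 and PF below CON in 2 of 4, and in the others both groups sat at the floor. Without the 5 libraries, 1 of 7 CON, 0 of 9 PAE and 0 of 9 PF animals remained called. With the share of regions called as a covariate, the log2 difference from CON was −0.36 in PAE and −0.44 in PF animals. The part of these library properties in the difference between groups was not tested.

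**Figure D1:**
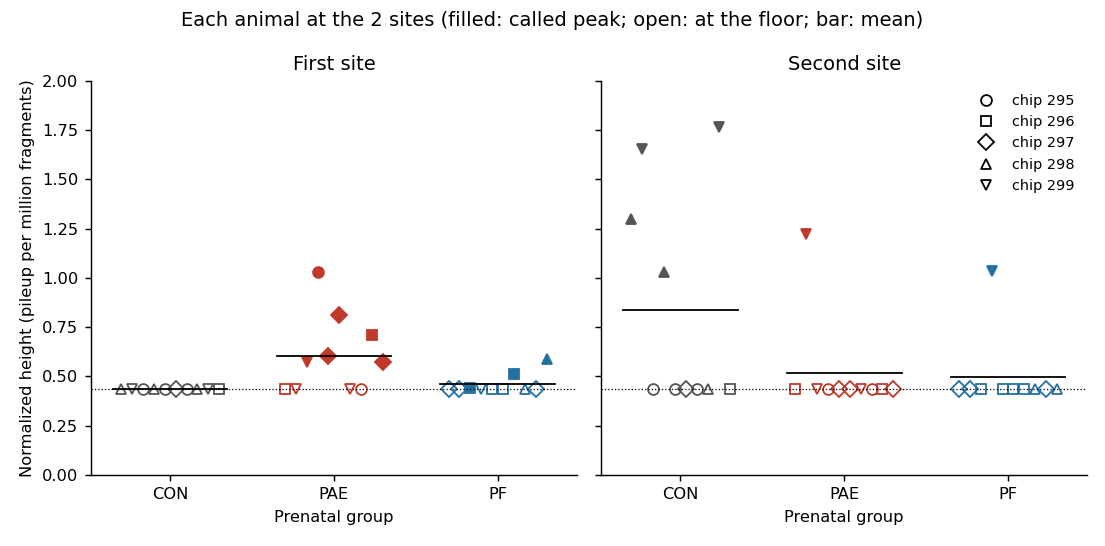
Normalized height (pileup per 1000000 filtered fragments, linear axis from 0) of each of the 30 animals at the 2 Slc12a8 sites, by prenatal group, with marker shapes for the 5 sequencing chips, filled markers for called peaks, open markers for animals set to the floor of 0.438 (dotted line) and bars for group means. At the first site 6 PAE and 3 PF animals are filled and no CON animal is, and at the second 4 CON animals, 1 PAE and 1 PF animal are filled, all with the triangles of the same 2 chips.

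**Figure D2:**
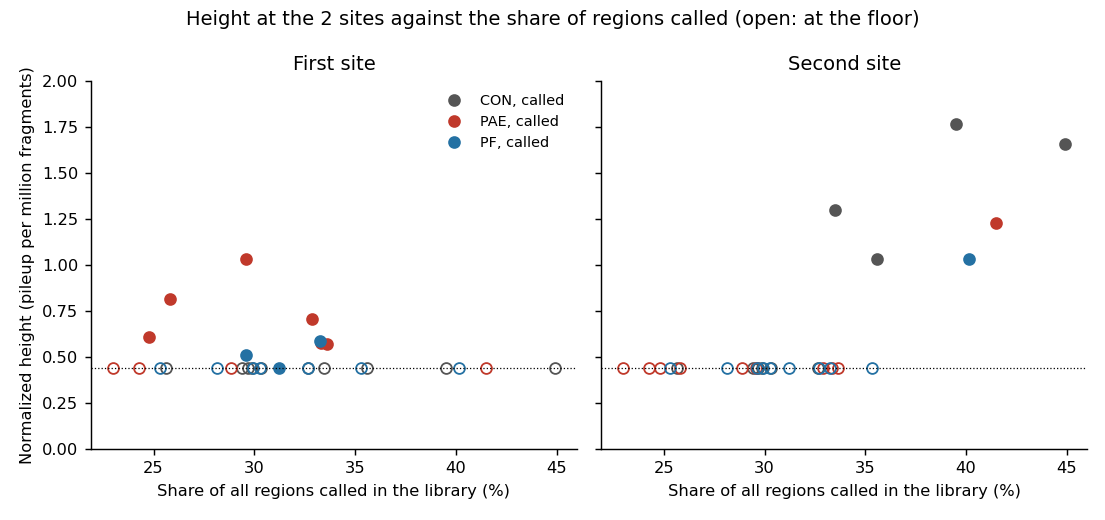
Normalized height at the 2 sites against the share of all 432103 regions with a called peak in the same library (%), coloured by group, with open markers for animals at the floor (dotted line). At the second site the 5 libraries with a share of 35.6% or more are all called, and at the first site none of those 5 is.

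The called peaks at the 2 sites came from different animals, and no animal had one at both. Over the 30 animals the log2 heights of the 2 sites had a Pearson r of −0.25, which mixes the groups, chips and library properties and is given as a description only.

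Along the span, the length of the 50 regions ran from 288 to 1697 bp and had a median of 557.5 bp, against 499 bp for all regions, and together they covered 16.9% of it. Gaps between neighbouring regions ranged from 73 to 12002 bp, and their median was 2396 bp. The median number of libraries with a peak was 6, both for the members and for all regions. By presence, 5 regions were called in 2 libraries, 25 in 3 to 9, 19 in 10 to 29 and 1 in all 30. Just outside the selection lay 14 regions called in a single library (6 CON, 2 PAE and 6 PF) with heights of 0.366 to 0.953, against 0.655 to 1.67 for the called animals of the 5 regions with 2 libraries.

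Of the 50 regions, 33 were called in at least 1 animal of every group, 14 in exactly 2 groups and 3 in 1 group. These are shares of 66.0%, 28.0% and 6%, beside 63.5%, 29.1% and 7.35% of all 432103 regions. A peak was called in 18.0 ± 3.46 regions per CON animal, 15.8 ± 2.66 per PAE animal and 17.6 ± 3.63 per PF animal (SD, n = 10 each). The ranges overlapped widely, from 13 to 25 among CON, 12 to 20 among PAE and 12 to 25 among PF animals. As a share, this was 36.0% of the members in CON, 31.6% in PAE and 35.2% in PF, beside 33.1%, 29.8% and 31.6% of all regions in the same animals, so that the span followed the same order as the rest of the autosomes. The 5 libraries with the most regions called had a peak in 42.0% of the members and the other 25 in 32.7%.

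**Figure D3:**
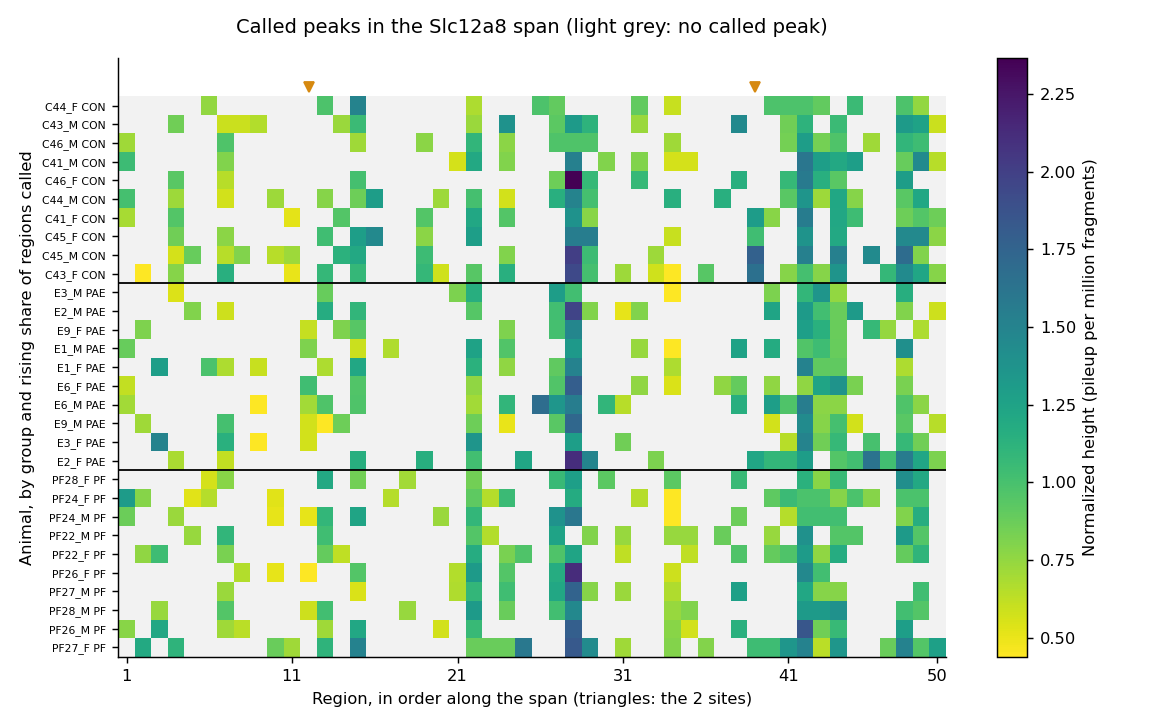
Map of called peaks in the 50 regions (columns, in order along the span) and 30 animals (rows, by group and, within a group, by rising share of all regions called), with the normalized height in colour (pileup per 1000000 filtered fragments) and light grey where no peak was called (triangles mark the 2 sites). Columns called in nearly every animal, such as the 1 called in all 30, stand beside columns with a few calls, and at the second site the called CON animals are the lowest rows of their group.

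In all 3 comparisons, 0 of the 43 regions other than the 2 sites passed an FDR of 0.05 (limma with Benjamini-Hochberg adjustment over all tested regions), beside 0.000284% of all tested regions between PAE and CON, 0% between PAE and PF and 0% between PF and CON. Among these 43 regions, the smallest adjusted p was 0.661 for PAE versus CON, 0.988 for PAE versus PF and 0.773 for PF versus CON. The standard error of a log2 difference between PAE and CON had a median of 0.192 over the 45 regions and ranged from 0.0654 to 0.290. Animals without a called peak share the floor value, which hides the real spread between them. A small standard error in a rarely called region is therefore no mark of precision, and p-values there carry the same limit. The range of standard errors thus does not show how small a difference could have been detected.

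For PAE versus CON, 16 of the 43 other regions had a higher and 27 a lower mean log2 height, with a median difference of −0.07 beside −0.05 for all tested regions. At an unadjusted p under 0.05, 1 region (2.33%) was higher and 4 (9.30%) were lower in PAE, beside 1.34% higher and 6.03% lower of all tested regions. For PAE versus PF, 18 were higher and 25 lower (median −0.04 beside −0.02), with 0 higher and 3 (6.98%) lower at that threshold, beside 1.51% and 2.95%. For PF versus CON, 20 were higher and 23 lower (median −0.02 beside −0.03), with 2 (4.65%) higher and 1 (2.33%) lower, beside 2.06% and 4.39%. Each of these shares rests on 4 or fewer regions. Of the 43 regions, 17 (39.5%, beside 33.2% of all tested regions) reached the minimum of 3 libraries only through the group with the most called animals, so that the filter itself favoured a difference there. They held 1 of the 4 lower regions for PAE versus CON, 2 of the 3 lower for PAE versus PF, and both higher and the 1 lower region for PF versus CON, and no p-value is given for such regions below.

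**Figure D4:**
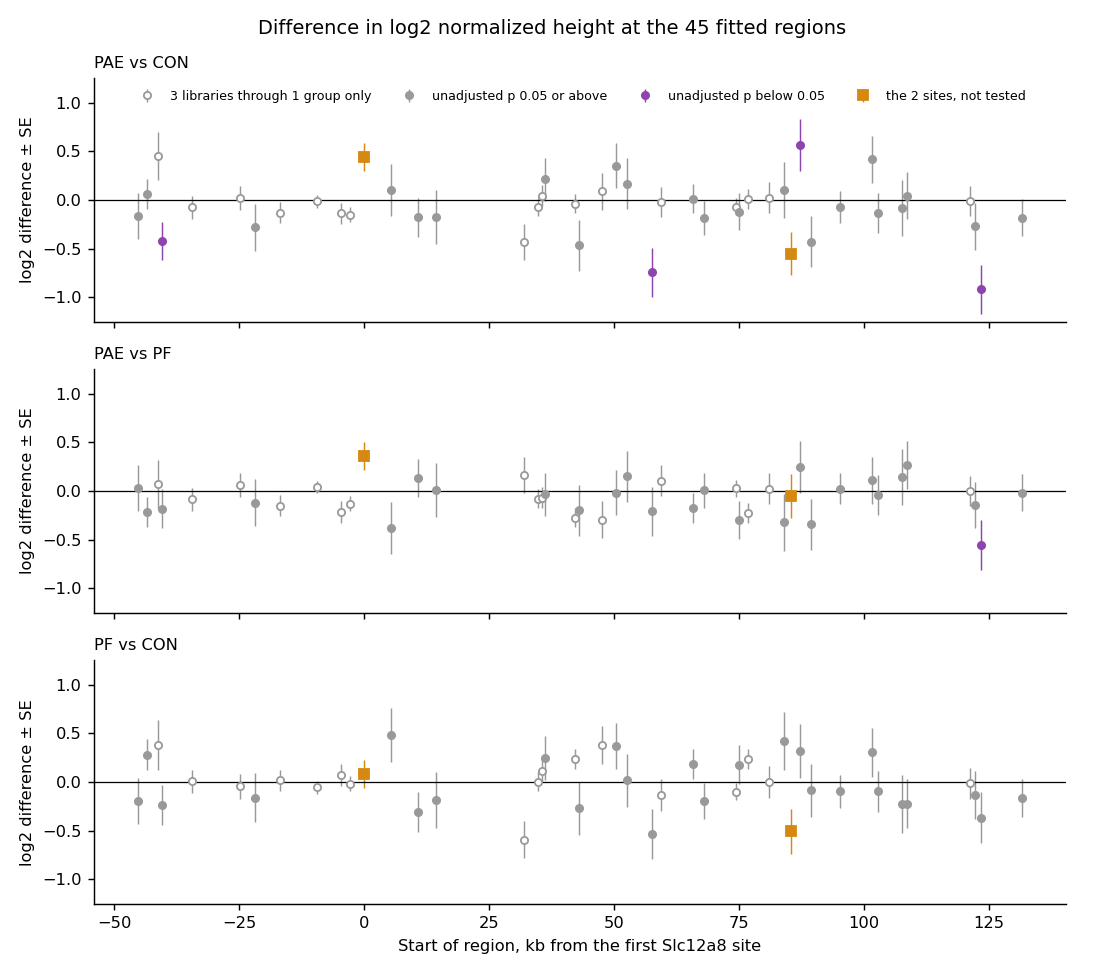
Difference in log2 normalized height (± SE) in the 3 comparisons of groups at the 45 fitted regions, against the start of the region in kb from the first site. Squares are the 2 sites, which were not tested, open circles regions that reached 3 libraries only through 1 group, purple points other regions with an unadjusted p under 0.05 and grey points the rest. Differences of both signs lie side by side along the whole span, from −0.92 to 0.57 for PAE versus CON.

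The largest fitted difference in the span was not at either site but at chr11:70493200-70494026, 123 kb after the first site and 37.9 kb after the second. Normalized height there reached 1.46 in CON (median 1.13), 1.23 in PAE (median 0.438) and 1.20 in PF (median 0.969), and the lowest value in each group was the floor. Called animals numbered 9 in CON, 4 in PAE and 8 in PF, so that most PAE animals were low while most CON and PF animals were high, with overlap. PAE was lower than CON by 0.92 on the log2 scale (SE 0.253, unadjusted p = 0.00102, adjusted p = 0.661) and lower than PF by 0.55 (SE 0.254, unadjusted p = 0.0367, adjusted p = 0.988). PF and CON differed by −0.36 (SE 0.263, adjusted p = 0.811). Within chips PAE was below CON in 4 of 4 and below PF in 3 of 3, and PF was below CON in 4 of 4. Called peaks came from both pups of 0 PAE dams, of 4 CON dams and of 4 PF dams. All 5 libraries with the most regions called had a peak here, and without them the differences were −1.10 from CON and −0.72 from PF, while in the libraries that went with their labelled sex they were −1.23 and −1.13.

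Between the sites, the region chr11:70427450-70428595 had a peak in 8 animals of the CON, 2 of the PAE and 3 of the PF group. Its height ranged from the floor to 1.54 in CON (median 1.01), to 1.50 in PAE and to 1.43 in PF animals, with a median at the floor in the latter groups. The called PAE animals were both pups of 1 dam, E2. PAE was lower than CON by 0.74 (SE 0.253, unadjusted p = 0.00626, adjusted p = 0.661) and PF was lower than CON by 0.53 (SE 0.262, adjusted p = 0.773). Within chips, PAE was below CON in 3 of 4 and below PF in 3 of 3, whereas PF was above CON in 2 and below in 2 of 4. Every animal called at the second site was also called here, and without the 5 libraries with the most regions called the differences were −0.82 and −0.60. In the libraries that went with their labelled sex they were −0.72 and −0.59.

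The region most like the second site over the 30 animals lay 53.5 kb before it, at chr11:70401831-70402293 (Pearson r of log2 heights 0.87, a description in which the points share group, chip and library properties). It was called in 5 CON animals, at 0.772 to 1.08, in 1 PAE animal, at 1.16, and in no PF animal. Of its 6 called animals, 5 were also called at the second site, which is 83.3% of either list. The log2 difference from CON was −0.59 in PF (SE 0.191) and −0.43 in PAE animals (SE 0.184), given without a test because the region reached 3 libraries only through CON. Within chips, PF was below CON in 3 of 4 and PAE below CON in 2 of 4, and in the others both sat at the floor. Of the 5 libraries with the most regions called, 4 had a peak here. Without those 5 libraries it was called in 2 of 7 CON, 0 of 9 PAE and 0 of 9 PF animals, too few to be fitted, and it could not be fitted in the libraries that went with their labelled sex either. Next in likeness came chr11:70444237-70444698 (r 0.71), called in 2 CON and 1 PAE animals, all 3 of them among the same 5 libraries.

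Near the start of the span, chr11:70329378-70330123, 40.5 kb before the first site, had a peak in 7 animals of the CON, 2 of the PAE and 2 of the PF group. The CON animals had a median of 0.754 and a highest value of 0.953, and the medians of PAE and PF animals were at the floor, with highest values of 0.681 and 1.11. The log2 difference of PAE from CON was −0.42 (SE 0.199, unadjusted p = 0.0435, adjusted p = 0.674) and that of PF from CON −0.24 (SE 0.207, adjusted p = 0.846). Within chips, PAE was below CON in 2 of 4 and PF below CON in 1 and above in 2 of 4. All 6 animals called at the second site were called in this region as well. With the share of regions called as a covariate, the unadjusted p for PAE versus CON was 0.127. The difference was −0.39 both without the 5 libraries with the most regions called and in the libraries that went with their labelled sex.

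The nearest region after the second site, chr11:70456948-70457730, starts 1.66 kb downstream and had the opposite order of groups. It was called in 7 PAE animals, at 0.573 to 1.29, in 2 CON animals, at 0.779 and 0.977, and in 4 PF animals, at 0.732 to 1.03. PAE animals thus filled the upper part of the range, but every group had animals at the floor. PAE was higher than CON by 0.57 (SE 0.270, unadjusted p = 0.0445, adjusted p = 0.674) and than PF by 0.25 (SE 0.271, adjusted p = 0.988). Every one of the 5 PAE dams had at least 1 called pup, against 2 of 5 CON dams and 3 of 5 PF dams. Within chips PAE was above CON in 4 of 4 and above PF in 1 of 3. Without the 5 libraries with the most regions called, the difference from CON was 0.42 (unadjusted p = 0.219), and in the libraries that went with their labelled sex it was 0.96. The region on the other side of the second site, chr11:70453784-70454173, had a peak in 2 animals of the CON, 3 of the PAE and 5 of the PF group, and PAE differed from CON by 0.10 (SE 0.290, adjusted p = 0.949). A lower height in PAE and PF animals than in CON was thus not seen in either neighbour within 2 kb of the second site.

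The 2 regions nearest to the first site lay before it and were rarely called. At chr11:70366956-70367407, 2.91 kb upstream, 3 CON animals, 0 PAE and 1 PF animal had a peak, with a highest normalized height of 0.722. Of these 4 animals, 3 were among the 5 libraries with the most regions called, and all 4 were also called at the second site. Without those 5 libraries, 1 of 7 CON, 0 of 9 PAE and 0 of 9 PF animals had a peak there. At chr11:70365172-70365571, 4.69 kb upstream, 2 CON, 0 PAE and 4 PF animals had one, with a highest value of 0.875. PAE animals were thus all at the floor in both, whereas 6 were called at the first site. The log2 difference of PAE from CON was −0.15 (SE 0.0763) and −0.14 (SE 0.112), respectively. The regions with the height most like that at the first site were far from it. At chr11:70471427-70472387, 102 kb away (r 0.36), 6 animals of the CON, 9 of the PAE and 9 of the PF group were called, with mean heights of 0.743, 0.956 and 0.859. At chr11:70453784-70454173, beside the second site, r was 0.29.

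A further 2 regions were called mostly in PF animals and reached the minimum of 3 libraries only through them, so they are described without a test. At chr11:70411967-70412570, 3 PF animals had a peak, at 0.655 to 0.875, and no CON or PAE animal did. The log2 difference was 0.24 between PF and CON (SE 0.103) and −0.27 between PAE and PF (SE 0.0993). At chr11:70446604-70447255, 4 PF animals had a peak, at 0.569 to 0.805, beside 1 CON animal at 0.562 and no PAE animal. Here it was 0.24 between PF and CON (SE 0.107) and −0.23 between PAE and PF (SE 0.103). Most PF animals were at the floor in both regions. Without the 5 libraries with the most regions called, the first had 2 called animals left and could not be fitted, and at the second the difference between PF and CON was 0.26. Neither could be fitted in the libraries that went with their labelled sex.

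The strongest and most regularly called regions of the span had overlapping ranges of height in the 3 groups. The longest, chr11:70465019-70466715 (1697 bp), was the only one called in all 30 libraries, and its peaks rested on pileups of 11 to 26 fragments. Its normalized height was 1.34 ± 0.236 in CON (0.977 to 1.61, median 1.37), 1.27 ± 0.260 in PAE (0.756 to 1.54, median 1.30) and 1.32 ± 0.257 in PF animals (0.983 to 1.85, median 1.31; SD, n = 10 each). The 3 groups covered nearly the same range. The log2 differences were −0.07 for PAE versus CON (SE 0.163, adjusted p = 0.940), 0.03 for PAE versus PF (SE 0.164, adjusted p = 0.998) and −0.09 for PF versus CON (SE 0.169, adjusted p = 0.935), and each changed sign under at least 1 alternative setting. The region with the highest mean, chr11:70422385-70422782, had a peak in 9 animals of the CON, 10 of the PAE and 9 of the PF group, with means of 1.50 ± 0.543, 1.58 ± 0.329 and 1.47 ± 0.469 (SD, n = 10 each), a spread within groups far above the distance between them.

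**Figure D5:**
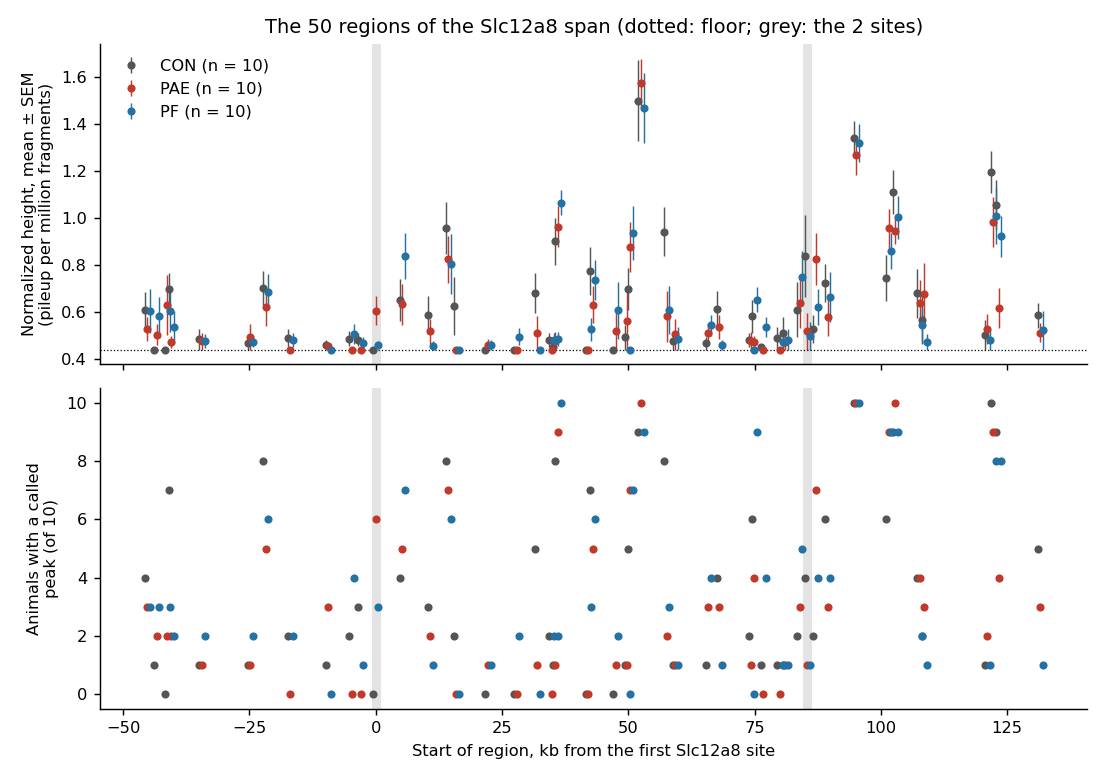
Mean normalized height (± SEM, n = 10 per group; pileup per 1000000 filtered fragments) and number of animals with a called peak for each prenatal group at the 50 regions, against the start of the region in kb from the first site. Grey bands mark the 2 sites and the dotted line the floor of 0.438. Both sites lie low on the scale, with group means between 0.438 and 0.838, whereas the region called in all 30 animals has means of 1.27 to 1.34.

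By stretch, the 11 regions before the first site were called 30 times in the CON, 19 times in the PAE and 28 times in the PF group. The 26 regions between the sites were called 82, 68 and 87 times, and the 11 after the second site 64, 64 and 57 times. As shares of animals and regions, these are 27.3%, 17.3% and 25.5% before the first site, 31.5%, 26.2% and 33.5% between the sites, and 58.2%, 58.2% and 51.8% after the second, beside 33.1%, 29.8% and 31.6% over all regions. The median log2 difference between PAE and CON was −0.13 before the first site, −0.02 over the 21 tested regions between the sites and −0.08 after the second. Between PAE and PF it was −0.12, −0.07 and 0.00, respectively.

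The study also examined the labelled sexes separately. A difference between the labelled sexes in the contrast was tested as an interaction, and 0 of the 43 other regions passed an FDR of 0.05, with a smallest adjusted p of 0.942. At an unadjusted p under 0.05 there were 3 (6.98%) for PAE versus CON, 1 (2.33%) for PAE versus PF and 1 (2.33%) for PF versus CON, beside 4.87%, 3.19% and 4.77% of all tested regions. The region after the second site, chr11:70456948-70457730, was among them for both contrasts of PAE. There, 5 of 5 PAE animals labelled male had a peak, with a mean height of 1.02, against 0 of 5 CON (0.438) and 1 of 5 PF animals (0.497), while in animals labelled female 2 PAE, 2 CON and 3 PF animals did. The other regions at that threshold for PAE versus CON were chr11:70375134 and chr11:70478502 (named by their starts). The 1 region counted for PF versus CON reached 3 libraries only through PF and is not taken as a result. At the first site the called PAE animals were 3 of each labelled sex. The mean over all 5 PAE animals, with those at the floor, was 0.617 for the label female and 0.594 for male. At the second site 3 of the 4 called CON animals were labelled female. Because 18 libraries went against their labelled sex on the sex chromosomes, these are differences between labels. Prenatal group and dam were also known from the labels only, and whether those are right was not tested.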

How the data were processed

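MeDIP-seq libraries of the PFC of 30 rats (10 CON, 10 PAE and 10 PF) were used. Reads were mapped to Rn6 by the authors (BWA), filtered with SAMtools at a mapping quality of at least 10 and used for peak calling per library with MACS2 2.1.4 (q-value 0.05, paired-end, no control). The deposited signal is the pileup at a peak's summit, not scaled for depth, and the deposited −log10 q-value served for a stricter threshold. The study's own counts and batch correction start from reads not used here.

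Peaks overlapping by 1 bp were merged, and the highest pileup per 1000000 filtered fragments (11548314 to 16555049 per library) was taken, with a floor of 0.438, the largest of the libraries' lowest heights. Since these values are not counts, linear models of log2 height were built with limma 3.58.1 under R 4.3.3 (trended prior variance). They held group, labelled sex and sequencing chip, and p-values were adjusted over 352026 autosomal regions called in at least 3 libraries. The fit was tested on simulated normal values without a floor, with changes placed only in widely called regions. That test does not show how the fit does in regions called in few libraries. Tables and figures used Python 3.11.15, numpy 2.4.6, pandas 2.3.3 and matplotlib 3.10.9. Groups, labelled sex, dam and chip came from the labels.

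Regions named are the 2 sites, those called in all libraries, those with an unadjusted p under 0.05 in any contrast, the 2 nearest to each site, the 2 (called in 3 or more libraries) most correlated with each, and the longest and highest. The members and this rule were chosen with earlier results of these data known, and the regions at the interaction threshold were named after their values were seen. Alternatives covered the floor, scaling, peak threshold, cover, minimum of libraries, chip, sex and litter terms, Fisher's exact test and each animal left out. The sex chromosome, share of regions called, fragment size and 25-library settings were added after seeing the data. No Rn6 genome was used, so which regions besides the 2 sites lie in exons or introns was not determined here.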

Additional observations from a re-analysis of the deposited data

Results flagged for a closer look

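Of 7 groups in which all 10 animals had a called peak, 1 had an animal far from the others. At chr11:70472674-70473622, 1 PAE animal labelled female (dam E6) had a normalized height of 1.37, and the other 9 PAE animals had 0.747 to 1.07. Its gap to the next animal was 0.481 of the group's range, just above Dixon's critical value for 10 samples. Chance alone marks about 1 in 20 such groups. The region had a peak in 9 CON animals, 10 PAE animals and 9 PF animals, and PAE differed from CON by −0.13 on the log2 scale (SE 0.204, adjusted p = 0.897).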

How the results depend on the processing

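Under all 49 settings, 0 of the regions other than the 2 sites passed an FDR of 0.05 in any contrast. Among those that did not reach 3 libraries only through 1 group, the smallest limma adjusted p was 0.109 for PAE versus CON. It was 0.467 for PAE versus PF and 0.278 for PF versus CON. At an unadjusted p under 0.05, 0 to 3 regions other than the sites (0 to 6.98%) were higher and 0 to 6 (0 to 13.95%) lower in PAE than CON. The shares of all tested regions were 0.252 to 2.69% and 0.612 to 10.8%. Against PF there were 0 to 1 (0 to 3.85%) and 0 to 5 (0 to 11.6%), beside 0.244 to 3.16% and 0.503 to 5.85%. In PF against CON there were 0 to 5 (0 to 11.6%) and 0 to 3 (0 to 7.9%), beside 0.34 to 4.45% and 0.448 to 9.09%. The setting with only regions called in all 30 libraries tested 1 of them. With the chip effect removed first, 6 of 43 (14.0%) were lower in PAE than CON beside 10.8% of all tested regions (6 also without PAE replicate 9, beside 6.52%), 5 (11.6%) lower in PAE than PF beside 5.85%, and 5 (11.6%) higher in PF than CON beside 4.45%. Removing the chip effect first left the differences as they were but made p-values too small, for all tested regions as well. All these counts include regions that reached 3 libraries only through 1 group, where the filter itself favoured a difference. With uncalled animals at 0 and a pseudocount of 0.1, the first site's log2 differences were 1.89 (PAE minus CON), 1.26 (PAE minus PF) and 0.63 (PF minus CON), and the second site's PAE versus CON was −1.19. By construction the pseudocount lies further below called heights than the floor. At the second site PAE versus PF reversed to 0.024 without the chip term and with dam means, 0.039 with peaks covering 50% of the region, 0.081 with share of regions called and 0.10 with fragment size as covariates, and leaving out single animals gave −0.10 to 0.057. At the region called in all 30 libraries, chr11:70465019-70466715, PAE versus CON was 0.050 with median ratio scaling and 0.091 with quantile normalization (−0.15 to 0.024 leaving out single animals), PAE versus PF −0.065 without the chip term and with dam means and −0.59 with 50% cover (−0.021 to 0.081), and PF versus CON 0.014 with quantile normalization and 0.075 with 50% cover. The cause of these reversals was not tested. The second site could not be fitted in the 12 or the 25 libraries, where fewer than 3 had a peak. No analysis paired across prenatal groups was made, since the groups share no dams. The interaction with labelled sex was fitted without a term for dam. Litter as a random effect (correlation −0.0173 between pups of a dam) left 0 regions past the threshold. Depth limits the span most where a peak rests on few fragments, since 1 fragment more or less can decide whether it is called.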
